A study of Mus musculus with 32 samples.

Results

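The 5 genes described here encode the cytochrome P450 enzymes CYP2A12, CYP2A4, CYP2A5, CYP2A22 and CYP2G1. They were taken by name from the 54532 genes counted in mouse liver, and all 5 rows were found. The samples were livers of C57BL/6 mice taken at 12 weeks of age. Each mouse was male or female, WT or *Cyp2c70* KO, and fed chow or chow with 0.006% SC-435 (about 11 mg/kg/day), an inhibitor of the ileal bile acid transporter (IBATi) that interrupts the return of bile acids (BAs) from the gut to the liver. This gave 8 groups of 4 libraries, named here by sex, genotype and diet. The KO allele lacks exon 2 of *Cyp2c70*, which encodes the mouse enzyme that makes muricholic acids, and the line descends from 1 founder made with CRISPR-Cas9. The labels place the switch to SC-435 at 3 weeks after weaning, whereas the methods of the study place it at weaning. The study shows the female libraries as individual animals. For the males the labels only number the replicates, so their p-values measure the spread between these libraries.

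CYP2A enzymes are microsomal monooxygenases that hydroxylate steroids, BAs, coumarin, nicotine and other small molecules. CYP2A12 adds a hydroxyl group to secondary BAs, which gut bacteria have dehydroxylated, and so turns them back into primary BAs, a step that mouse liver performs and human liver does not. CYP2A4 is a testosterone hydroxylase known for its female-predominant expression in mouse liver. CYP2A5 hydroxylates coumarin and oxidises nicotine, is found mainly in pericentral hepatocytes, and is known to rise in several forms of liver injury and after exposure to activators of the nuclear receptor CAR. CYP2G1 is known best from the olfactory mucosa. No function is given here for CYP2A22, a close copy of CYP2A12.

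All 5 genes lie within 1 cluster of *Cyp2* genes on chromosome 7 (coordinates of GRCm38, as deposited). *Cyp2a4* (ENSMUSG00000074254) spans chr7:26307169-26315088 and *Cyp2g1* (ENSMUSG00000049685) spans chr7:26808892-26821205. *Cyp2a5* (ENSMUSG00000005547) spans chr7:26835305-26843548 and *Cyp2a12* (ENSMUSG00000060407) spans chr7:27029081-27037375. These 4 genes are on the plus strand, and *Cyp2a22* (ENSMUSG00000091867), at chr7:26931631-26939384, is on the minus strand. Each is annotated as protein coding with 9 exons in its full protein-coding transcript. *Cyp2a22* overlaps the pseudogene *Cyp2a21-ps* and *Cyp2a4* overlaps the gene *Gm42375*, both on the opposite strand, and the sources used here do not say whether counting used strand, so reads from the overlaps cannot be told apart.

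The genes form 2 near-identical pairs, and this bears on how their reads can be counted. The coding sequences of *Cyp2a4* and *Cyp2a5* were 98.4% identical, with 23 different bases among 1482, and the longest run without a difference was 216 bases. The coding sequences of *Cyp2a12* and *Cyp2a22* were 97% identical, with 45 different bases among 1476 and a longest identical run of 206 bases. All other pairings of the 5 genes were 62.7% to 76.4% identical. Of all 100-base stretches in the transcripts of a gene, 11.2% for *Cyp2a4* and 12.1% for *Cyp2a5* occurred also in a transcript of another gene, against 3.97% for *Cyp2a12*, 3.98% for *Cyp2a22* and 1.17% for *Cyp2g1*. To show how few bases separate *Cyp2a4* from *Cyp2a5*, the 120 coding bases within 1 exon that hold the most differences are printed from the GENCODE transcripts. They lie in exon 2 (chr7:26307662-26307781 and chr7:26835807-26835926, plus strand), and capitals mark the 4 bases that differ.
Cyp2a4: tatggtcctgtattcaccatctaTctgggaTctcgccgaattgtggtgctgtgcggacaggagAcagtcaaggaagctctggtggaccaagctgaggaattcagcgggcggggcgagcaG
Cyp2a5: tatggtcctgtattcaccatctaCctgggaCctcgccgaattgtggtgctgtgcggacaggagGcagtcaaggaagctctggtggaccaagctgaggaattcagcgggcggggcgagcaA

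The same choice for *Cyp2a12* and *Cyp2a22* fell in exon 9 (chr7:27036469-27036588, plus strand, and chr7:26932409-26932528, minus strand), where 10 of 120 bases, in capitals, differ.
Cyp2a12: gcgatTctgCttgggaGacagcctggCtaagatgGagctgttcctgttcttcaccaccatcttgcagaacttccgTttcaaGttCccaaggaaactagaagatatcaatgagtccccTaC
Cyp2a22: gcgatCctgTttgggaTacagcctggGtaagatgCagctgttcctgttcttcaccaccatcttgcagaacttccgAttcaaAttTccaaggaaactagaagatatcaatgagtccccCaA

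To show how alike the paired genes are outside their coding sequence, the 250 bases before the RefSeq start site were compared. RefSeq promoters of GRCm38.p6 matched 4 of the 5 genes by symbol. The RefSeq starts of *Cyp2a4*, *Cyp2a5* and *Cyp2a12* lie downstream of the starts of the deposited gene spans, so the ends of those windows fall inside the spans. *Cyp2g1* was not matched. The windows of *Cyp2a4* (chr7:26306942-26307191) and *Cyp2a5* (chr7:26835089-26835338), both on the plus strand, were 98.4% identical. They differed at 4 positions and were offset by 1 base at the ends. Capitals mark the differing and the unaligned bases.
Cyp2a4: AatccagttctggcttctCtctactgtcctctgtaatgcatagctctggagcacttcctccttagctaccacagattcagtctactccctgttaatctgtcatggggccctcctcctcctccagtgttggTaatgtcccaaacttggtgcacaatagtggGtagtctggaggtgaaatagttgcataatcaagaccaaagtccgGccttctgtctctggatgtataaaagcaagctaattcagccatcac
Cyp2a5: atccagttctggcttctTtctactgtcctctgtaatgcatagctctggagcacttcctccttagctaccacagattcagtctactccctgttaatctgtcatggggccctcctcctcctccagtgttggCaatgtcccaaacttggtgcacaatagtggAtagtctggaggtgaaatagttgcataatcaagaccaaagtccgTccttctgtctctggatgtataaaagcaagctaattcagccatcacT

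The windows of *Cyp2a12* (chr7:27028840-27029089, plus strand) and *Cyp2a22* (chr7:26939387-26939636, minus strand) were 90.4% identical over their aligned bases, with 23 substitutions and 22 unaligned bases, both in capitals.
Cyp2a12: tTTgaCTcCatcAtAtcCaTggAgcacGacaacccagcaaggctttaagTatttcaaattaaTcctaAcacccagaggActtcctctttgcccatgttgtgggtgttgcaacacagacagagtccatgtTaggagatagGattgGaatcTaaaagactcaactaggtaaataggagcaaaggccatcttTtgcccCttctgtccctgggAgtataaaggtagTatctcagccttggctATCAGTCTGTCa
Cyp2a22: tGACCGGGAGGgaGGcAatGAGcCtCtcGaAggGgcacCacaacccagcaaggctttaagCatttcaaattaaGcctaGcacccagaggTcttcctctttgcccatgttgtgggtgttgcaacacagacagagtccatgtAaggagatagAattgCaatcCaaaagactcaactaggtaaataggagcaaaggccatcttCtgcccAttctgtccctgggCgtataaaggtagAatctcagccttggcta

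A few motifs were searched on both strands of these windows. The TATA box letters TATAAA were found in all 4 windows, beginning 28 to 39 bases before the start, and in 12.4% of 32851 mouse promoters of the same length. CAAAGTCC, a form of the HNF4A site, was found in *Cyp2a4* and *Cyp2a5* and in 1.2% of promoters. TTATGNAA, a form of the site of PAR bZIP factors such as DBP, was found in the same 2 windows and in 3.07% of promoters. TTCNNNGAA, the STAT5 site, was in none of the 4 windows and in 7.02% of promoters. The motifs do not overlap. A match in these letters is a description and not a shown site.

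Library totals were 36476021 to 44771350 counts, which gave mean counts per library of 25684 for *Cyp2a12*, 6456 for *Cyp2a4*, 39084 for *Cyp2a5*, 1059 for *Cyp2a22* and 181 for *Cyp2g1*. The targeted gene *Cyp2c70* averaged 318 to 704 CPM in the WT groups and 123 to 174 CPM in the KO groups, with no KO library as high as any WT library. None of the 10 hepatocyte markers (among them *Alb*, *Apoa1* and *Ttr*) stayed below 1 CPM in all 32 libraries. Their level was not constant. On chow their summed CPM was 109432 ± 11180 in WT and 67837 ± 9200 in KO females, without overlap. In males it was 107967 ± 50329 in WT and 71967.5 ± 12160 in KO, with overlap. In KO females on chow edgeR called *Apoa1* (log2 fold change -1.05, adjusted p = 0.0179) and *Alb* (-0.82, adjusted p = 0.0125) lower than in WT. The part of this difference in the levels of the *Cyp2* genes was not tested. The library male WT chow replicate 1 stood apart, with a TMM scaling factor of 0.622 and a mean correlation of 0.906 with its group, and values without it are given where it changes a call or a count. Without it, 7.3% of all genes were called for KO against WT in males on chow, 2.53% for SC-435 in WT males, 12.2% for KO males on SC-435 against WT males on chow and 9.53% for females against males in WT on chow. Levels are given as CPM, which are counts scaled to a common library total after TMM correction over all 32 libraries, and as mean ± SD over 4 libraries.

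**Figure D1:**
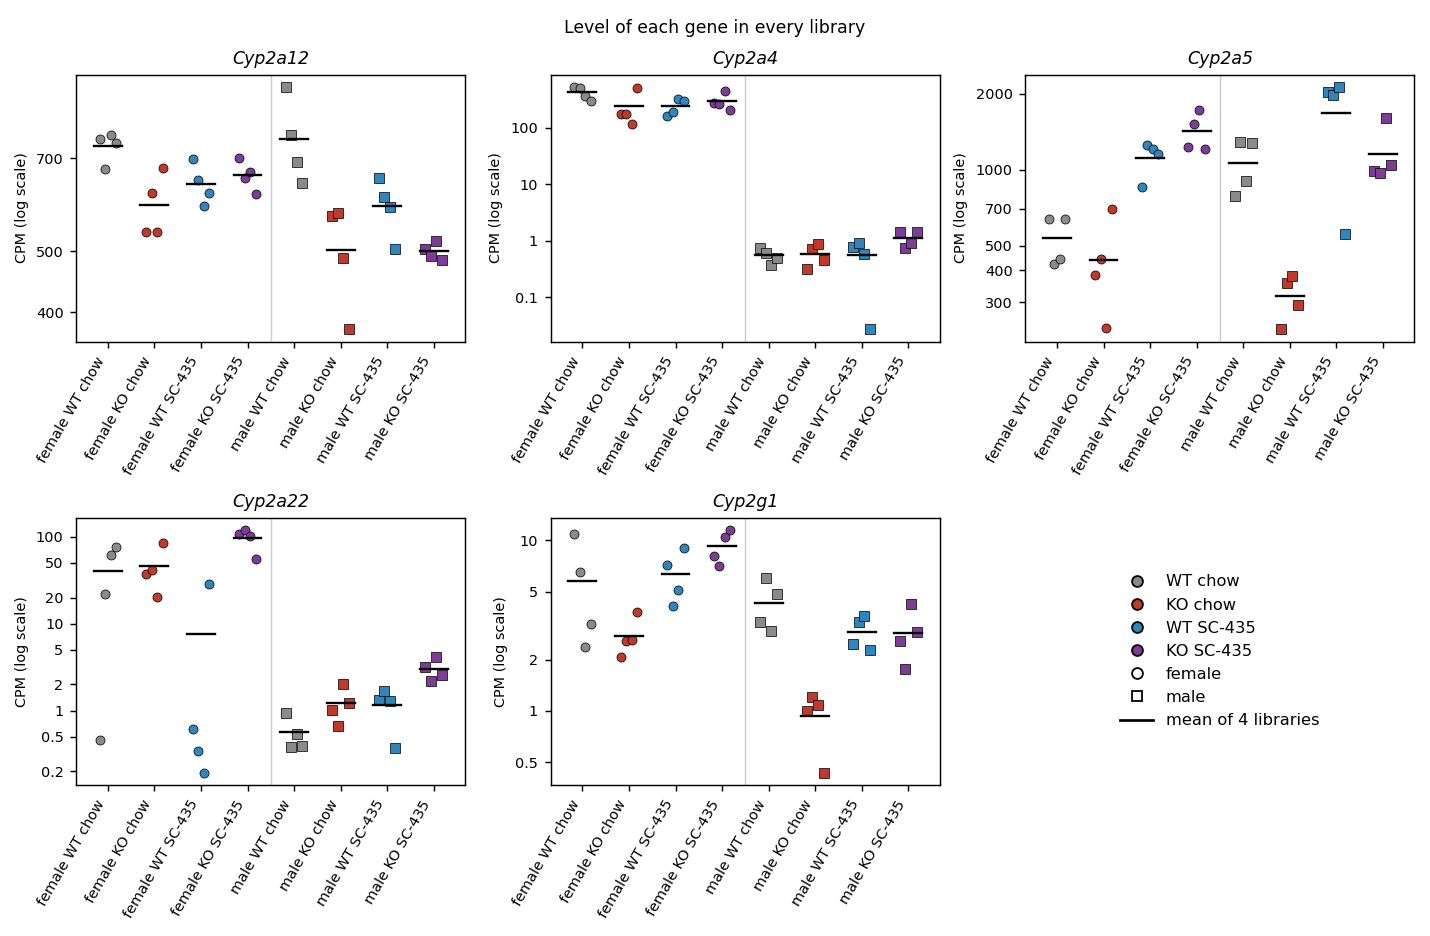
CPM of each gene (log scale) in each of the 32 libraries, by group, with circles for females, squares for males and a line at the group mean. *Cyp2a4* separates the sexes in every group, the mean of *Cyp2a5* is higher in every SC-435 group than in the KO chow groups, and *Cyp2a22* is split among WT females.

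*Cyp2a12* was the steadiest of the genes, from 376 to 908 CPM over the 32 libraries, a 2.41-fold range. The highest value came from the library with the lowest TMM factor (male WT chow replicate 1, 0.622). The lowest value came from the library with the highest TMM factor (male KO chow replicate 4, 1.26). Females on chow had 751, 675, 762 and 741 CPM in WT and 537, 617, 535 and 676 CPM in KO livers. Males on chow had 908, 763, 690 and 640 CPM in WT and 567, 573, 488 and 376 CPM in KO livers. After TMM scaling the male groups did not overlap, whereas the female groups met at 675 and 676 CPM. Before scaling, male WT chow replicate 1 had 23298 *Cyp2a12* counts in a total of 41247352. Male KO chow replicate 1 had 25133 in 43118531, a higher share, so the separation of the male groups depended on TMM scaling. On SC-435, WT females had 638 ± 47.1 CPM and KO females had 658 ± 36 CPM. On SC-435, WT males had 588 ± 62.5 CPM and KO males had 500 ± 15.4 CPM. From the highest mean (male WT chow, 750 CPM) to the lowest (male KO SC-435, 500 CPM), each group overlapped the next.

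The KO against WT difference of *Cyp2a12* on chow did not pass the test in either sex. It was -0.32 ± 0.11 (log2 fold change ± SE) in females (adjusted p = 0.0814) and -0.55 ± 0.20 in males (adjusted p = 0.235). Without male WT chow replicate 1, which had the highest level after TMM scaling (908 CPM), the male difference was -0.46 ± 0.16 (adjusted p = 0.108). Without female KO chow replicate 4, the highest KO female, the female difference was -0.37 and passed (adjusted p = 0.0387). Leaving out any other single female library gave no call (adjusted p up to 0.22). DESeq2 called the difference in females (adjusted p = 0.0333), and a fit of all 4 groups of the sex called it in females (adjusted p = 0.0189) and in males (adjusted p = 0.0358). Other settings weakened it. Over 8 alternative settings it ran from -0.32 to -0.13 in females, with adjusted p-values up to 0.422 and 2 calls. In males it ran from -0.61 to -0.26, with adjusted p-values up to 0.39 and 1 call. SC-435 moved *Cyp2a12* in KO livers by 0.16 ± 0.10 in females and by 0.00 ± 0.13 in males, neither of which passed (adjusted p = 0.31 and 0.999). The SC-435 difference in WT livers was -0.20 ± 0.08 in females and -0.35 ± 0.19 in males (adjusted p = 0.205 and 0.836). The difference between KO males on SC-435 and WT males on chow was -0.57 ± 0.15 (adjusted p = 0.246), and without male WT chow replicate 1 it was -0.48 and passed (adjusted p = 0.00631). The only *Cyp2a12* difference that passed was between the sexes in KO on SC-435, where females were higher by 0.40 ± 0.07 (adjusted p = 0.00153). A fit of all 32 libraries gave the same 0.40 with an adjusted p of 0.0582.

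*Cyp2a4* was a female transcript in every genotype and diet. Females had 535, 509, 364 and 301 CPM in WT chow livers and 177, 176, 118 and 506 CPM in KO chow livers. On SC-435, WT females had 161, 193, 318 and 301 CPM and KO females had 274, 268, 445 and 211 CPM. The 16 male libraries had 1 to 59 counts each, or 0.0268 to 1.44 CPM. No male library came near a female library, and the lowest female group mean (243 CPM) was 214 times the highest male group mean (1.14 CPM). Within each sex, every group overlapped the next in order of mean.

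The higher level of *Cyp2a4* in females passed the test in all 4 settings. On chow it was 9.60 ± 0.37 on the log2 scale in WT (adjusted p = 6.99e-06) and 8.71 ± 0.62 in KO (adjusted p = 0.000225). On SC-435 it was 8.73 ± 0.54 in WT (adjusted p = 1.8e-05) and 8.03 ± 0.30 in KO (adjusted p = 1.89e-08). Among females, KO on chow was below WT on chow by 0.82 ± 0.41 on the log2 scale, which did not pass (adjusted p = 0.203). Of the KO chow females, replicate 4 had 506 CPM and the other 3 had at most 177 CPM. Without it the difference was -1.43 and passed (adjusted p = 0.00218). Leaving out any other single library gave no call (adjusted p up to 0.398). Without female KO chow replicate 4, SC-435 raised *Cyp2a4* in KO females by 0.94 (adjusted p = 0.0157), against 0.30 ± 0.41 with it (adjusted p = 0.657). SC-435 in WT females gave -0.82 ± 0.25, which did not pass (adjusted p = 0.102), although DESeq2 called the same value (adjusted p = 0.0125). KO females on SC-435 against WT females on chow gave -0.52 ± 0.24 (adjusted p = 0.164), and without female KO SC-435 replicate 3 -0.77 (adjusted p = 0.0388). In males SC-435 in KO gave 0.96 ± 0.36 (adjusted p = 0.0937). KO males on SC-435 had 2.09-fold more *Cyp2a4* than WT males on chow at these low counts, with no overlap but short of the threshold (adjusted p = 0.382), and without male WT chow replicate 1 this difference passed at 1.22 on the log2 scale (adjusted p = 0.0433).

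*Cyp2a5*, the near-identical neighbour of *Cyp2a4*, was expressed in both sexes and varied more with genotype and diet. Male livers on chow had 787, 1292, 905 and 1276 CPM in WT and 234, 357, 380 and 292 CPM in KO. Male livers on SC-435 had 2023, 1974, 2129 and 555 CPM in WT and 992, 969, 1607 and 1041 CPM in KO. Every KO male on chow was below every other male library. Female livers on chow had 639, 422, 445 and 639 CPM in WT and 383, 444, 236 and 698 CPM in KO. Female livers on SC-435 had 852, 1252, 1208 and 1159 CPM in WT and 1233, 1511, 1729 and 1204 CPM in KO. All 8 females on SC-435 were above all 8 females on chow.

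On chow, *Cyp2a5* was 3.30-fold lower in KO than in WT males, with a log2 fold change of -1.72 ± 0.26 (adjusted p = 0.0231). In females the KO difference was -0.29 ± 0.29 (adjusted p = 0.528). The test of the difference between the sexes, 1.47 ± 0.41 on the log2 scale, did not pass (adjusted p = 0.409, or 0.0919 without male WT chow replicate 1). When single libraries were left out, the male difference stayed between -1.86 and -1.60, with adjusted p-values of 0.00566 to 0.0994. It passed only without male WT chow replicate 1 and without male KO chow replicate 2. Scaling by library size alone gave -1.49 (adjusted p = 0.0677).

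SC-435 raised *Cyp2a5* in KO livers of both sexes. The rise was 3.23-fold in females (1.69 ± 0.28 on the log2 scale, adjusted p = 0.0056) and 3.66-fold in males (1.87 ± 0.21, adjusted p = 0.00132), and these calls held under every alternative tried. In WT females the rise was 2.08-fold (1.05 ± 0.17, adjusted p = 0.0133). In WT males it was 0.65 ± 0.40 (adjusted p = 0.836), where 3 libraries had at least 1974 CPM and replicate 4 had 555 CPM. Without male WT chow replicate 1 the difference in WT males was 0.53 ± 0.40 (adjusted p = 0.524). With each library left out in turn, it ran from 0.52 to 0.95 and never passed (adjusted p = 0.427 to 0.993). The rise in KO females carried them above WT females on chow by 1.40 ± 0.17 (adjusted p = 0.000664). KO males on SC-435 differed from WT males on chow by 0.12 ± 0.24 (adjusted p = 0.927). The genotype by diet interaction of *Cyp2a5* was 0.64 ± 0.35 in females (adjusted p = 0.327) and 1.21 ± 0.47 in males (adjusted p = 0.304), so a difference in response between KO and WT was not shown. On SC-435, KO against WT was 0.35 ± 0.14 in females (adjusted p = 0.144) and -0.54 ± 0.36 in males (adjusted p = 0.693). From the highest mean (male WT SC-435, 1670 CPM) to the lowest (male KO chow, 316 CPM), neighbouring groups overlapped except male WT chow and female WT chow, which were 1.99-fold apart.

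On chow, WT females had less *Cyp2a5* than WT males by 1.0 ± 0.25 on the log2 scale and the groups did not overlap, but the difference did not pass (adjusted p = 0.11). Without male WT chow replicate 1 the difference was -1.11 and passed (adjusted p = 0.00669), and DESeq2 also called it (adjusted p = 0.00604), as did a fit of all 32 libraries (adjusted p = 0.042). On SC-435 the WT difference was -0.58 ± 0.35 (adjusted p = 0.356), and without male WT SC-435 replicate 4 it was -0.87 (adjusted p = 0.003). In KO the sex difference on chow was 0.50 ± 0.30 (adjusted p = 0.446). KO females on SC-435 were above KO males by 0.30 ± 0.17 (adjusted p = 0.22), and without male KO SC-435 replicate 3 by 0.50 (adjusted p = 0.0119).

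Because the sequences of *Cyp2a4* and *Cyp2a5* are so close, their counts were also read together. In males *Cyp2a4* held 0.00483% to 0.228% of the counts of the pair in any library, while *Cyp2a5* reached 83669 counts, so in male livers almost no *Cyp2a5* reads were assigned to *Cyp2a4*. In females the share of *Cyp2a4* was 44.3% ± 9.29 in WT chow, 33.8% ± 5.81 in KO chow, 17.7% ± 3.68 in WT SC-435 and 17.1% ± 2.68 in KO SC-435 livers. The highest share on SC-435 (20.8%) was below the lowest on chow (28.4%). With the counts of both genes added, WT females on chow (964 ± 152 CPM) and WT males on chow (1066 ± 258 CPM) differed by -0.15 ± 0.23 on the log2 scale (adjusted p = 0.838). The added counts rose with SC-435 in KO females by 1.33 ± 0.32 (adjusted p = 0.0203) and in KO males by 1.87 ± 0.21 (adjusted p = 0.00133). In WT females the SC-435 difference was 0.49 ± 0.15, which did not pass (adjusted p = 0.102), whereas *Cyp2a5* alone had passed. KO females on SC-435 had more of the added counts than KO males, by 0.57 ± 0.18 (adjusted p = 0.0349), where *Cyp2a5* alone had not passed.

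**Figure D2:**
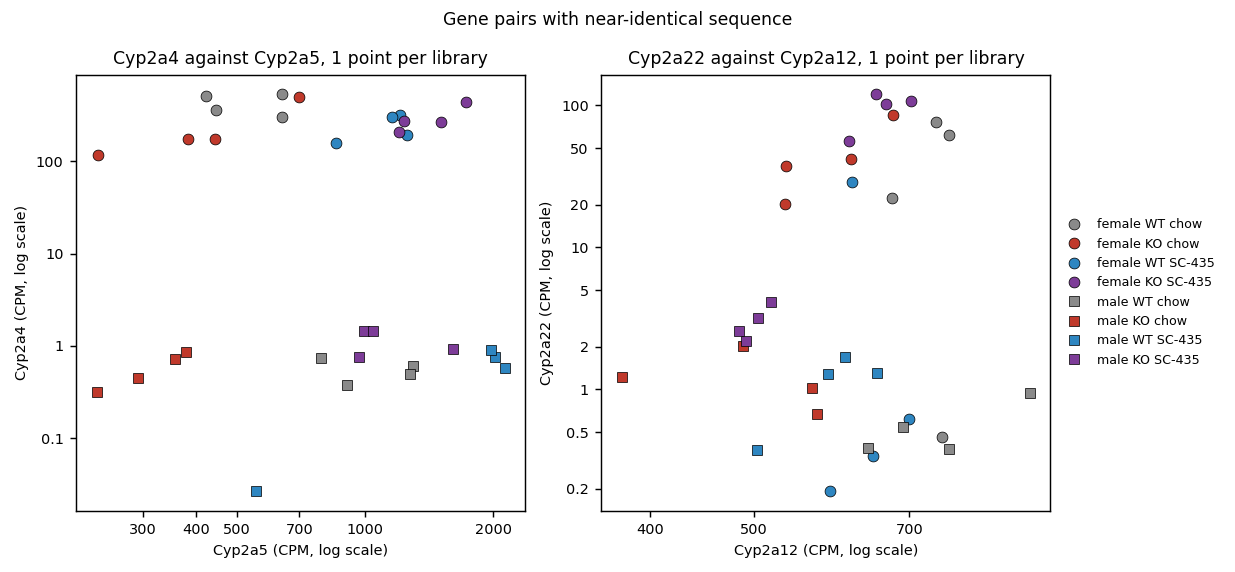
CPM of *Cyp2a4* against *Cyp2a5* (left) and of *Cyp2a22* against *Cyp2a12* (right), log scales, with 1 point per library, circles for females and squares for males. In males *Cyp2a4* stays at or below 1.44 CPM while *Cyp2a5* runs from 234 to 2129 CPM, and 4 WT females have *Cyp2a22* as low as males.

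*Cyp2a22* was low in males and uneven among females. WT females on chow had 0.465, 22.2, 61.4 and 76.9 CPM and WT females on SC-435 had 0.617, 0.341, 0.193 and 28.9 CPM. These values come from 18, 946, 2530 and 3239 counts on chow and from 26, 14, 8 and 1291 counts on SC-435, so 4 WT females, from both diets, were at or below 0.617 CPM and the other 4 were at or above 22.2 CPM. KO females had 37.6, 41.7, 20.2 and 85.8 CPM on chow and 107, 120, 102 and 56.0 CPM on SC-435, and all 8 of these were at or above 20.2 CPM. The 4 WT females at or below 0.617 CPM of *Cyp2a22* had 535, 161, 193 and 318 CPM of *Cyp2a4*, against 118 to 509 CPM in the other 12 females. Their *Cyp2a12* was 589 to 751 CPM. Males had 0.563 ± 0.259 CPM in WT chow, 1.24 ± 0.581 in KO chow, 1.17 ± 0.562 in WT SC-435 and 3.01 ± 0.830 in KO SC-435 livers. In order of mean, neighbouring groups overlapped except male KO SC-435 and male KO chow, which were 2.44-fold apart.

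Females had more *Cyp2a22* than males in 3 of the 4 settings. In KO the differences were 5.23 ± 0.51 on chow (adjusted p = 0.000965) and 5.0 ± 0.26 on SC-435 (adjusted p = 3.39e-07), with no overlap. In WT on chow the difference was 6.18 ± 1.24 (adjusted p = 0.0479), although the ranges overlapped at female replicate 1. That call was lost when any of male WT chow replicates 2, 3 and 4 or female WT chow replicates 2, 3 and 4 was left out (5.66 to 6.38, adjusted p = 0.101 to 0.169). In WT on SC-435 the difference was 2.68 ± 1.40 (adjusted p = 0.278), and without female WT SC-435 replicate 4 it turned to -1.60 (adjusted p = 0.156).

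The effects of genotype and diet on *Cyp2a22* in females depended on those uneven libraries. KO and WT females on SC-435 did not overlap (96.1 ± 27.8 against 7.51 ± 14.3 CPM), with a difference of 3.67 ± 1.15 that did not pass (adjusted p = 0.0686). Without female WT SC-435 replicate 4 the difference was 7.95 (adjusted p = 1.11e-05), and with no filter on low counts it was 3.66 (adjusted p = 0.0209). On chow the KO difference was 0.20 ± 0.90 (adjusted p = 0.908). SC-435 gave 1.06 ± 0.38 in KO females (adjusted p = 0.0832), 1.55 without female KO chow replicate 4 (adjusted p = 0.00326), 1.06 with no filter on low counts (adjusted p = 0.0367), and -2.42 ± 1.47 in WT females (adjusted p = 0.396), which became -6.70 without female WT SC-435 replicate 4 (adjusted p = 0.0733). In KO males SC-435 raised *Cyp2a22* by 1.28 ± 0.34 (adjusted p = 0.0339), from 29 to 101 counts to 90 to 155 counts. That call was lost when male KO chow replicate 1 or 4, or male KO SC-435 replicate 1, 3 or 4, was left out (1.1 to 1.35, adjusted p = 0.0506 to 0.088), with library size alone (1.05, adjusted p = 0.069) and with the 4 male groups in 1 fit (1.28, adjusted p = 0.0832). KO and WT males on SC-435 did not overlap, with a difference of 1.35 ± 0.37 (adjusted p = 0.333) that DESeq2 called (adjusted p = 0.029). KO males on SC-435 were above WT males on chow by 2.45 ± 0.36 (adjusted p = 0.0399), and this call held only without male WT chow replicate 1 (adjusted p = 0.00103) and not without any of the other 7 libraries (adjusted p = 0.112 to 0.194).

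*Cyp2g1* was low but counted in every liver, with 24 to 507 counts. Females had 11.0, 6.51, 2.38 and 3.23 CPM in WT chow livers and 2.07, 2.56, 2.62 and 3.81 CPM in KO chow livers. On SC-435, WT females had 7.17, 4.12, 5.15 and 9.07 CPM and KO females had 8.14, 7.12, 10.5 and 11.5 CPM. Males on chow had 3.31, 6.02, 2.95 and 4.85 CPM in WT and 0.993, 1.2, 1.09 and 0.433 CPM in KO. Males on SC-435 had 2.45, 3.30, 3.59 and 2.28 CPM in WT and 2.56, 1.75, 4.23 and 2.90 CPM in KO. As for *Cyp2a5*, every KO male on chow was below every other library of that sex.

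On chow, *Cyp2g1* was 4.54-fold lower in KO than in WT males, with a log2 fold change of -2.18 ± 0.39 (adjusted p = 0.0426). In females it gave -1.07 ± 0.43 (adjusted p = 0.118), which DESeq2 called (adjusted p = 0.0401), and the test of the difference between the sexes did not pass (1.15 ± 0.61, adjusted p = 0.834). The male value ranged from -2.33 to -1.96 as single libraries were left out and passed only without male WT chow replicate 1 (adjusted p = 0.0179 to 0.147). SC-435 raised *Cyp2g1* in KO livers 3.39-fold in females (1.76 ± 0.22, adjusted p = 0.00171) and 3.09-fold in males (1.63 ± 0.36, adjusted p = 0.0189). The male call was lost without male KO SC-435 replicate 3 (1.38, adjusted p = 0.0519) or replicate 4 (1.62, adjusted p = 0.0556). Neighbouring groups in order of mean overlapped except female KO chow and male KO chow, which were 2.98-fold apart. In WT livers SC-435 gave 0.14 ± 0.43 in females and -0.56 ± 0.29 in males (adjusted p = 0.893 and 0.836).

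The genotype by diet interaction of *Cyp2g1* was 1.62 ± 0.53 in females (adjusted p = 0.104) and 2.17 ± 0.48 in males (adjusted p = 0.0912) and did not pass in either sex. DESeq2 called both (adjusted p = 0.0292 and 0.00164), and without male WT chow replicate 1 the male interaction passed with edgeR as well (2.27, adjusted p = 0.0477). KO against WT on SC-435 was 0.55 ± 0.24 in females (adjusted p = 0.166). KO females on SC-435 against WT females on chow gave 0.69 ± 0.39 (adjusted p = 0.259), or 1.2 without female WT chow replicate 1 (adjusted p = 0.0251). Females had more *Cyp2g1* than males in KO on chow (1.59 ± 0.34, adjusted p = 0.043), WT on SC-435 (1.13 ± 0.26, adjusted p = 0.0314) and KO on SC-435 (1.71 ± 0.24, adjusted p = 0.000526). In WT on chow the difference was 0.42 ± 0.47 (adjusted p = 0.776). The KO chow call held only without male KO chow replicate 4 (adjusted p = 0.024), and the WT SC-435 call was lost without male WT SC-435 replicate 1 or 2 or female WT SC-435 replicate 1 or 4 (0.91 to 1.2, adjusted p = 0.0668 to 0.0885).

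**Figure D3:**
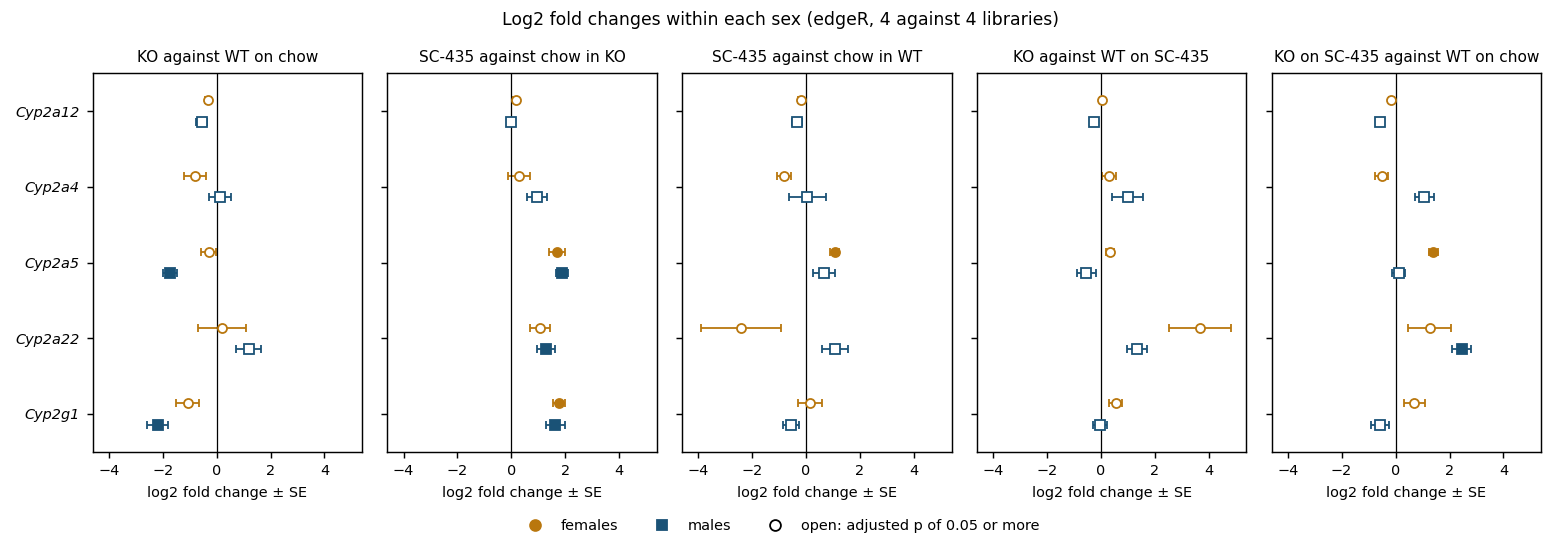
Log2 fold change with its SE for the 5 genes in the 5 comparisons made within each sex, circles for females and squares for males, filled where the adjusted p was under 0.05. *Cyp2a5* and *Cyp2g1* are lower in KO males on chow and higher with SC-435 in KO livers of both sexes.

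Counted by comparison with edgeR's quasi-likelihood test, KO against WT on chow called 0 of 5 genes in females (14.9% of all genes tested were called), where 2 had an unadjusted p under 0.05 and DESeq2 called 2. In males the same comparison called 2 of 5, both lower (1.08% of all genes), and 2 of 5 without male WT chow replicate 1 (7.3%). SC-435 against chow in KO called 2 of 5 in females (17.8%) and 3 of 5 in males (17.2%), all higher. SC-435 against chow in WT called 1 of 5 in females (4.28%) and 0 of 5 in males (0.0394%), where none had an unadjusted p under 0.05 and DESeq2 called 0. KO against WT on SC-435 called 0 of 5 in females (10.9%), with 3 at an unadjusted p under 0.05 and 0 by DESeq2, and 0 of 5 in males (0.0324%), with 2 and 1 respectively. KO on SC-435 against WT on chow called 1 of 5 in females (16%) and 1 of 5 in males (0.208%), or 3 of 5 in males without male WT chow replicate 1 (12.2%).

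Between the sexes all calls with every library included were higher in females. They numbered 2 of 5 in WT on chow (1.49% of all genes in either direction), 3 of 5 in KO on chow (2.73%), 2 of 5 in WT on SC-435 (7.05%) and 4 of 5 in KO on SC-435 (26.3%). In WT on chow 3 of 5 were called without male WT chow replicate 1 (9.53%), the third being *Cyp2a5*, lower in females. The 4 interaction tests called 0 of 5 genes each. Of all genes, the genotype by diet interaction called 2.64% in females and 0.0906% in males. The sex by genotype interaction on chow called 0.0235% and the sex by diet interaction in KO called 0.211%. At an unadjusted p under 0.05 the genotype by diet interaction had 3 of the 5 genes in females and 2 in males, and DESeq2 called 1 in each. The share of all genes at that looser threshold is not given here. In females the interaction was 0.36 ± 0.12 for *Cyp2a12*, 1.11 ± 0.53 for *Cyp2a4* and 3.47 ± 1.61 for *Cyp2a22* (adjusted p = 0.122, 0.253 and 0.243). Without female KO chow replicate 4 those of *Cyp2a12* (0.43, adjusted p = 0.0308) and *Cyp2a4* (1.75, adjusted p = 0.00922) passed, and without female WT SC-435 replicate 4 that of *Cyp2a22* did (7.76, adjusted p = 0.0238). At an unadjusted p under 0.05 the sex by genotype interaction on chow had 1 gene and the sex by diet interaction in KO had 0. DESeq2 called 0 in both. Comparisons that share a group share its libraries, so the KO chow libraries enter both the genotype and the diet comparison of a sex.

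Levels of different genes were compared only per kilobase. The deposited length of *Cyp2a12* (3457 bases) and *Cyp2a22* (3445 bases) equals that of a retained-intron transcript, whereas their protein-coding transcripts have 1681 and 1796 bases, so both lengths were used. With the deposited length *Cyp2a5* had the highest level of the 5 genes in all 8 groups, at 152 to 806 CPM per kilobase. With the protein-coding length *Cyp2a12* came first in the 3 groups female WT chow, female KO chow and male KO chow, and *Cyp2a5* stayed first in the other 5. In male KO chow livers *Cyp2a12* then had 298 CPM per kilobase and *Cyp2a5* had 157. The sum over the 5 genes, by deposited length, was lowest in male KO chow (298 ± 41.4) and highest in female KO SC-435 livers (1080 ± 180 CPM per kilobase).

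**Figure D4:**
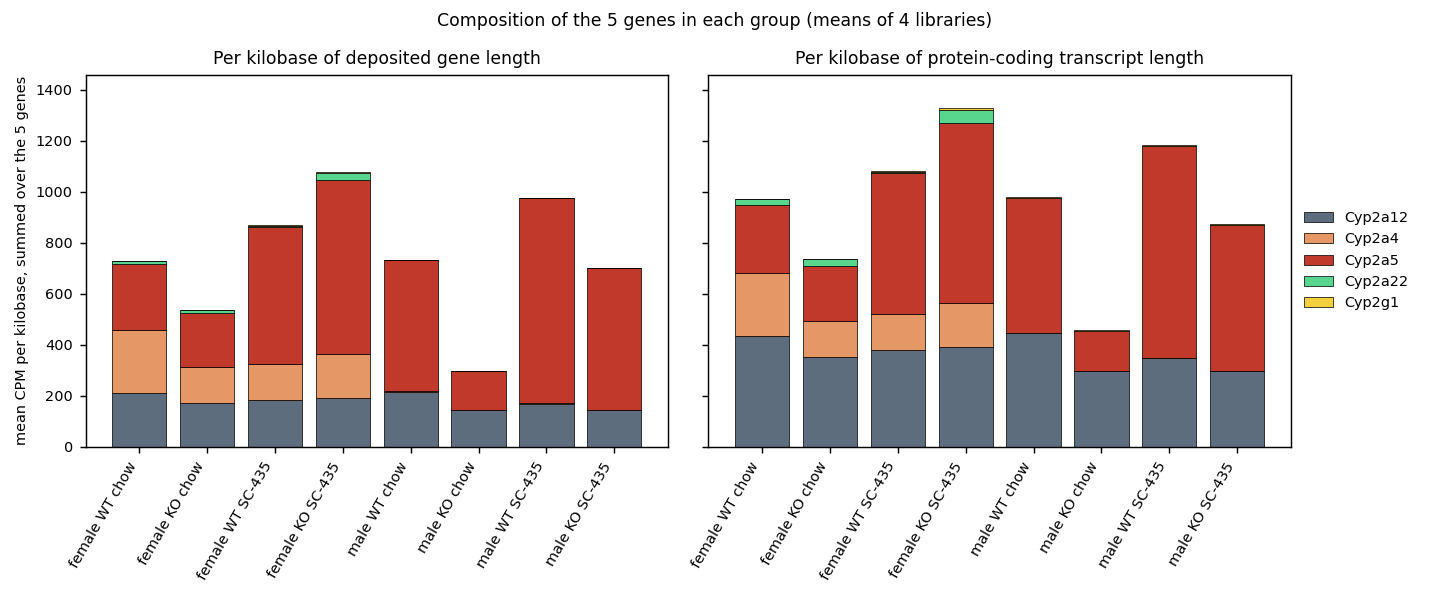
Mean CPM per kilobase of the 5 genes, stacked, in each group (4 libraries), using the deposited gene length (left) or the length of the protein-coding transcript (right). *Cyp2a5* and *Cyp2a12* make up nearly all of the level in males, *Cyp2a4* adds to it in females, and the share of *Cyp2a12* depends on the length used.

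Across all 32 libraries, and therefore with sex, genotype and diet mixed, the most similar of 11734 protein-coding genes were named for each gene by Pearson's r of log2 CPM, as a description. *Cyp2a4* was closest to *Cyp2b9* (r = 0.99) and *Cyp2b13* (0.98), both of which lie in the same gene cluster. *Cyp2a5* was closest to *Upp2* (0.91), *Gpt2* (0.87) and *Aass* (0.86), and the last 2 are enzymes of amino acid metabolism. *Cyp2a12* was closest to *Cyp2d26* (0.83), *Hsd11b1* (0.82) and *Abcc6* (0.81). *Cyp2a22* was closest to *Rarb* (0.78), *Hao2* (0.74) and *Evc* (0.72), and *Cyp2g1* to *Htra4* (0.83), *Ugt1a5* (0.83) and *9430038I01Rik* (0.82). Among the 5 genes themselves, *Cyp2a5* and *Cyp2g1* had r = 0.70 over the 16 females, 0.82 over the 16 males and 0.58 over all 32 libraries. *Cyp2a4* and *Cyp2a5* had r = 0.24 over the 16 females and 0.33 over the 16 males. Over all 32 libraries, where the sexes are mixed, their r was -0.04.

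List counts here and below can be set against the share of all genes called. For KO against WT on chow it was 14.9% in females and 1.08% in males. For SC-435 in KO it was 17.8% and 17.2%. Of 8 other *Cyp2* genes of the cluster, 6 were tested in females and 5 in males on chow and 0 were called for KO against WT in either sex (median -0.10 and -0.47, against -0.02 and 0.04 over all genes), and 0 of 5 in males without male WT chow replicate 1. With SC-435 in KO livers, 1 of 6 fell in females (*Cyp2f2*, a periportal monooxygenase, -0.32 ± 0.10, adjusted p = 0.0496) and 2 of 5 rose in males, led by the CAR target *Cyp2b10* (2.46 ± 0.30, adjusted p = 0.00185). Between the sexes in WT on chow, 2 of 6 were higher in females, *Cyp2b13* (14.93 ± 0.60, adjusted p = 6.99e-06) and *Cyp2b9* (10.63 ± 0.53, adjusted p = 2.68e-05). Of 16 known female-biased liver genes, 14 were higher in WT females on chow and 0 lower. KO against WT on chow lowered 4 of the 16 in females, among them the BA sulfotransferase gene *Sult2a1* (-4.43 ± 0.86, adjusted p = 0.00872), and SC-435 in KO females raised 5 and lowered 1. Of 15 male-biased genes 13 were lower in WT females on chow. KO against WT on chow in females lowered 7 and raised 2 of these 15, so falls were not limited to female-biased genes. Without male WT chow replicate 1, all 16 female-biased genes tested were higher, all 15 male-biased genes tested were lower, and 3 cluster genes were higher and 1 lower in WT females on chow.

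Among 16 regulators and partners of CYP2A enzymes, KO against WT on chow lowered 5 in females and called 0 in males, or lowered 5 in males without male WT chow replicate 1. The 5 in females included *Nr1i3*, which encodes CAR (-1.24 ± 0.21, adjusted p = 0.00509), and *Alas1*, the rate-limiting enzyme of heme synthesis (-1.46 ± 0.43, adjusted p = 0.0452). SC-435 in KO livers raised 6 and lowered 0 of the 16 in females, *Nr1i3* (0.84 ± 0.19, adjusted p = 0.0146) and the circadian factor *Dbp* (1.99 ± 0.55, adjusted p = 0.0337) among them. In KO males it raised 4, with *Por*, the electron donor of P450 enzymes, among them (1.16 ± 0.23, adjusted p = 0.0126), and lowered 2, with the BA-responsive repressor *Nr0b2* (SHP) among them (-1.95 ± 0.48, adjusted p = 0.0258). In WT females SC-435 raised *Por* (0.69 ± 0.12, adjusted p = 0.0142) and lowered *Nr0b2* (-1.36 ± 0.30, adjusted p = 0.0345), 1 of 16 in each direction. In WT males 0 of 16 were called, and 1 was higher and 1 lower without male WT chow replicate 1.

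Of 14 genes of BA synthesis and hydroxylation, SC-435 in KO livers raised 8 in females and 4 in males and lowered 0 and 1. *Cyp7a1*, the rate-limiting enzyme of BA synthesis, rose by 3.45 ± 0.69 in females (adjusted p = 0.00993) and by 3.83 ± 0.37 in males (adjusted p = 0.000561). *Cyp8b1*, the sterol hydroxylase needed for cholic acid, rose by 5.0 ± 0.85 in females (adjusted p = 0.00575) and by 2.97 ± 0.56 in males (adjusted p = 0.011). On chow, KO lowered 7 and raised 1 of the 14 in females and lowered 1 in males, the targeted *Cyp2c70*, or 3 without male WT chow replicate 1. Of 11 genes of growth hormone and STAT5 control, KO against WT on chow lowered 2 in females and called 0 in males (1 lower without male WT chow replicate 1), and SC-435 in KO lowered 3 in females and 1 in males. Of all genes, 14.9% were called for KO against WT on chow and 17.8% for SC-435 in KO in females.

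SC-435 in KO livers, where *Cyp2a5* and *Cyp2g1* rose in both sexes, raised 8 of 12 pericentral hepatocyte markers in females and 6 of 12 in males, with medians of 0.77 in both. KO against WT on chow lowered 7 of the 12 in females, where neither gene passed. In males, where both genes were lower, it called 0 of 12, or 2 lower without male WT chow replicate 1. The medians were -0.68 in females and -0.65 in males, or -0.34 in males without that library. The summed level of the 12 markers was 4582 to 9466 CPM in male KO chow livers, 11320 to 26664 in male WT chow livers (at most 12813 without replicate 1) and 13760 to 14235 in male KO SC-435 livers. In females it was 7566 to 9034 in KO chow, 12028 to 13439 in WT chow and 11259 to 12580 in KO SC-435 livers. In male WT SC-435, replicate 4, the library with 555 CPM of *Cyp2a5*, had 9965 CPM of these markers and the other 3 had 14964 to 16164 CPM. The part of pericentral hepatocytes in these results was not tested, and in bulk liver fewer cells of a type and less RNA per cell cannot be told apart.

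KO against WT on chow raised 9 of 11 tested cholangiocyte markers in females and 4 of 11 in males, and 11 of 13 and 2 of 13 macrophage markers. Without male WT chow replicate 1, the male counts were 8 of 11 and 3 of 13. SC-435 in KO lowered 4 and 8 of 11 cholangiocyte markers and 13 and 5 of 13 macrophage markers in females and males. The summed cholangiocyte markers were 212 to 1278 CPM in male KO chow livers against 85.5 to 105 CPM in male WT chow livers. Male KO chow replicate 4 had the highest sum (1278 CPM) and also the lowest *Cyp2a12* (376 CPM) and *Cyp2g1* (0.433 CPM) of its group, whereas *Cyp2a5* (234 CPM) and *Cyp2a4* (0.316 CPM) were lowest in replicate 1 and *Cyp2a22* (0.668 CPM) in replicate 2. In females the sums were 210 to 382 CPM in KO chow and 97.9 to 132 CPM in WT chow livers. The part of these cells in the levels of the 5 genes was not tested.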

How the data were processed

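Poly-A RNA from 32 mouse livers was sequenced by the authors, who deposited 1 table with raw read counts and FPKM per gene and library. Per the labels, processing used HISAT2 2.0.5, featureCounts 1.5.0-p3, DESeq2 1.20.0 and GATK 4.1.1.0 with build mm10; whether counting used strand is not given in the sources used here. The deposited counts were used. The deposited FPKM and the authors' comparison columns, which hold fold changes and p-values, were not used.

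Counts were tested with edgeR 4.0.16 in R 4.3.3 (TMM scaling, filterByExpr, quasi-likelihood F test) on all genes that passed the filter (15211 to 17069 per comparison), using the 8 libraries of a comparison or the 16 of an interaction. P-values were adjusted over all genes tested by the Benjamini-Hochberg method, and called means an adjusted p below 0.05. The SE was the log2 fold change divided by the square root of F. Correlations and likeness used log2 CPM with a prior count of 2, over genes averaging 50 or more counts per library. The genes and lists were chosen with earlier results of these data known. From each list, at most the 2 called genes with the largest change were named. Up to 3 genes most like each of the 5 were named. Some items are not reported here. Gene structures were read from GENCODE vM21 and promoters from RefSeq, and sequences were aligned with Biopython 1.88. The script was tested on simulated data.

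Alternatives were library size or median-of-ratios scaling, DESeq2 1.42.0, other filters on low counts, a replicate block, wider fits, *Cyp2a4* and *Cyp2a5* added together, and leaving out each library. Levels per kilobase of protein-coding transcript, and list counts without male WT chow replicate 1, were added after seeing the data. Libraries of a group were not duplicates: over 48 pairs within groups, the lowest chi-square per gene between their counts was 20.3. Replicate numbers were not treated as pairs.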

Additional observations from a re-analysis of the deposited data

Results flagged for a closer look

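In 4 of 40 sets of 4 libraries (5 genes in 8 groups), 1 library lay far from the other 3 by Dixon's ratio, against about 1 in 20 sets by chance. *Cyp2a22* was 28.9 CPM in female WT SC-435 replicate 4, and the other 3 libraries of the group had 0.193 to 0.617 CPM. *Cyp2a4* was 506 CPM in female KO chow replicate 4, against 118 to 177 CPM in the others. *Cyp2a5* was 1607 CPM in male KO SC-435 replicate 3, against 969 to 1041 CPM. *Cyp2a5* was 555 CPM in male WT SC-435 replicate 4, against 1974 to 2129 CPM. The last library also had 1 count of *Cyp2a4*, the lowest of all 32 libraries.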

How the results depend on the processing

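Of the results called by edgeR, 149 of 164 values under other settings kept their direction and call and 15 lost the call. With 1 library left out, 124 of 168 did and 44 lost it. Of the results not called, 15 of 520 values under other settings passed and 8 turned direction, and 16 and 32 of 712 did with 1 library left out. Each of those 16 belonged to a different result, so no uncalled result passed without more than 1 of its libraries in turn. The cause of these changes was not tested.

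The number of the 5 genes called for KO against WT on chow in females was 2 with DESeq2 and 1 with the 4 groups of the sex in 1 fit (0 to 2 with 1 library left out). In males it was 0 with library size only (0 to 2). For SC-435 against chow it was 2 to 4 in KO females, 1 to 3 in KO males, 1 to 1 in WT females and 0 to 0 in WT males with 1 library left out. In WT females it was 2 with DESeq2 and 0 with *Cyp2a4* and *Cyp2a5* added together. For KO against WT on SC-435 it was 1 in females with no filter on low counts (0 to 1) and 1 in males with DESeq2 (0 to 0). For KO on SC-435 against WT on chow it was 1 to 2 in females, and in males 0 with median-of-ratios size factors and 2 with DESeq2 (0 to 3). Between the sexes it was 1 to 3 in WT on chow, 2 to 3 in KO on chow, 1 to 3 in WT on SC-435 and 4 to 5 in KO on SC-435 with 1 library left out. In WT on chow it was 1 with library size only and 1 with *Cyp2a4* and *Cyp2a5* added. In WT on SC-435 it was 1 with all 32 libraries in 1 fit and 1 with the added counts. The genotype by diet interaction had 1 gene with DESeq2 in each sex (0 to 2 in females and 0 to 1 in males with 1 library left out), and the 2 interactions with sex had 0 to 0. The shares of all genes called under these settings are not given here, so these counts cannot be set against them. Such a share can move: for KO against WT on chow in males it was 1.08%, and 7.3% without male WT chow replicate 1.

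Replicate numbers were not treated as pairs: of 40 same-numbered pairs, 8 had a correlation over 0.1 (range -0.223 to 0.214). For KO against WT on chow in males 3 of 4 pairs did (0.0661 to 0.201), and there the block gave adjusted p-values of 0.0766 for *Cyp2a5* and 0.113 for *Cyp2g1*. With the replicate number as a block, 81 of 90 results kept their direction and call. The number of genes called became 0 for KO against WT on chow in males, 1 for KO against WT on SC-435 in females, 0 for KO on SC-435 against WT on chow in males, 1 for females against males in WT on chow, 2 in KO on chow and 1 in WT on SC-435. The share of all genes called with the block is not given here. Under the block *Cyp2a4* with SC-435 in WT males was -0.25 and *Cyp2a22* in WT females against males on SC-435 was -0.17.

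Scaling by library size alone moved the mean *Cyp2a12* level to 480.5 CPM in male KO SC-435 and 668 CPM in female KO chow. It also turned *Cyp2a12* with SC-435 in KO males to -0.18, *Cyp2a12* in WT females against males on chow to 0.16, and the genotype by diet interaction of *Cyp2a22* in males to -0.18. A filter at a mean of 50 counts gave -0.019 for *Cyp2a12* with SC-435 in KO males and 0.0012 for *Cyp2a12* in WT females against males on chow, and the fit of 4 male groups gave -0.0018 for the former. With 1 library left out, these uncalled log2 differences crossed 0. *Cyp2a12* ran from -0.11 to 0.074 with SC-435 in KO males and from -0.11 to 0.067 in WT females against males on chow. *Cyp2a4* ran from -0.14 to 0.34 for KO against WT on chow in males and from -0.26 to 0.46 with SC-435 in WT males. *Cyp2a5* ran from -0.075 to 0.23 for KO on SC-435 against WT on chow in males and from -0.41 to 0.13 for the sex by diet interaction. *Cyp2a22* ran from -0.27 to 0.72 for KO against WT on chow in females, from -1.60 to 3.08 in WT females against males on SC-435, from -0.16 to 0.52 for the male genotype by diet interaction and from -0.56 to 0.26 for the sex by diet interaction. *Cyp2g1* ran from -0.12 to 0.66 with SC-435 in WT females, from -0.27 to 0.14 for KO against WT on SC-435 in males, from -0.079 to 0.68 in WT females against males on chow and from -0.071 to 0.37 for the sex by diet interaction.

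Depth limits *Cyp2a4* and *Cyp2a22* in males, where libraries held as few as 1 and 14 counts.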

Other observations

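Markers of other liver cells also differed between groups. Of 10 stellate cell and fibroblast markers, KO against WT on chow raised 5 in females and 0 in males (5 in males without male WT chow replicate 1), and SC-435 in KO lowered 4 in females and 7 in males. All 3 neutrophil markers tested were higher in KO than in WT females on chow and lower with SC-435 in KO livers of both sexes. Of 8 markers of sinusoidal endothelium, 0 were called for KO against WT on chow in either sex (3 lower in males without male WT chow replicate 1), and SC-435 in KO raised 0 in females and 3 in males. Periportal hepatocyte markers, of which 10 were tested, had 2 higher in KO females on chow and 1 lower in KO males on chow, and SC-435 in KO lowered 5 in females and 0 in males. The part of these cells in the levels of the 5 *Cyp2* genes was not tested.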
